A study of Mus musculus with 48 samples.

Results

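The genes described here are those of the epidermal cornified envelope: every gene on the array whose symbol begins with Sprr or Lce, together with loricrin (Lor), involucrin (Ivl), filaggrin (Flg), hornerin (Hrnr), repetin (Rptn) and the transglutaminases Tgm1 and Tgm3. They were chosen by symbol, with earlier results of these data known, and 31 of 18194 measured genes met the rule: 9 Sprr, 15 Lce and 7 others. Flg2 and Crnn were also on the list, but no probe set carried either symbol alone. Their RNA was measured in whole skin of C3H/HeJ mice on 48 Affymetrix arrays, in a series on preventing mouse alopecia areata by inhibiting signals of interleukin-15 (IL-15). As is generally known of this model, skin grafted from affected mice brings on hair loss in which T cells attack the growing hair follicle.

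The week 5 groups were sham (n = 4), phosphate-buffered saline (PBS) given intraperitoneally (ip) (n = 4), and il15rb (n = 3), which is known to be a blocking antibody against the beta chain of the IL-15 receptor. The week 6 groups were PBS by pump (n = 3), jak3i (n = 5), PBS by gavage (n = 5) and jak12i (n = 5). From what is known of the study, jak3i is the Janus kinase inhibitor tofacitinib and jak12i is the JAK1 and JAK2 inhibitor ruxolitinib. The week 13 groups were PBS ip, il15rb, PBS pump, jak3i, PBS gavage and jak12i, each with n = 3. Labels of the weeks of treatment read 5/6 and 12/13. Each agent was set against the PBS of its own route, a tie that comes from what is known of the study and not from the labels. Age, sex, dose and what the sham animals received are not given in the sources used here. One week 5 array, whose title names PBS ip and whose treatment label names IL15, was placed in no group.

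The cornified envelope is the protein shell that replaces the plasma membrane of a keratinocyte as it dies at the skin surface. Transglutaminases, with Tgm1 the main one of the epidermis and Tgm3 active in both epidermis and hair follicle, crosslink involucrin as an early scaffold, then loricrin as the bulk protein, and the small proline-rich (Sprr) and late cornified envelope (Lce) proteins. Filaggrin, hornerin and repetin belong to a related family of large proteins that bundle keratin or join the envelope. Most of these genes lie side by side in the epidermal differentiation complex. Sprr1a, Sprr1b and the Sprr2 genes are known to rise in wounded and inflamed epidermis, and Lce3 genes are known as the stress-induced branch of the Lce family, while Lce1 genes are expressed in normal epidermis.

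Of the 31 genes, 25 entered the tests, which required a signal above the median of the whole table (6.70 on the log2 scale) in at least 3 arrays. The 6 that did not were Sprr2f, Sprr2i, Sprr2j-ps, Sprr3, Lce1g and Lce3a, which were above it in at most 1 array. Among the tested genes 18 were above it in all 47 grouped arrays. The 7 others passed in some arrays only: Lce1l in 45, Tgm3 in 36, Sprr2k in 31, Sprr2h in 23, Sprr1b and Sprr2d in 19 each and Lce3f in 4. A gene that passed only through the group where it is high was bound to differ, so counts over the tested members are no support in themselves. Probe sets of closely related genes can bind each other's RNA: those of Lce1a1, Lce1d, Lce1h, Lce1i, Lce3b and Lce3c are of the class that shares sequence with other genes, and those of Lor, Lce1m and Sprr2h of the class that matches several transcripts. Values of these 9 genes are therefore uncertain as to the family member. In whole skin, fewer cells of a type and less RNA per cell cannot be told apart.

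The array signals are log2 values, each change is a difference of group means ± its standard error (SE), and each adjusted p is from limma over 13648 genes. A gene is said to rise or fall only at an adjusted p under 0.05. Arrays of 1 group correlated at 0.973 to 0.996 over all genes. The 75th percentile of the arrays ran from 8.15 to 8.35 in week 6, from 8.47 to 8.68 in week 5 and from 8.68 to 8.78 in week 13, so levels of different weeks are set side by side without a test. Some arrays stood apart. Mean signal of 12 skeletal muscle genes was 7.44 in PBS ip week 13 replicate 3, 7.81 in PBS pump week 13 replicate 2 and 7.79 in PBS gavage week 6 replicate 5, and 10.5 in PBS ip week 13 replicate 1, where every other grouped array lay at 12.1 or above.

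Upstream sequences are shown for the Sprr genes that changed most and for Lce1l and Lce1m, the Lce genes with the largest rises under il15rb, because most Sprr windows held an AP-1 motif and no Lce window did. RefSeq's promoter table (build GRCm38.p6) held 29 of the 31 genes, and was searched over the 250 bases before each start site on both strands. Matches are TGANTCA (a loose form, with any middle base, of the AP-1 site, the motif of Fos and Jun factors), TTCNNNGAA (a STAT site, the motif of the factors that Janus kinases activate), TATAAA (the core box at which transcription is set up), and GAAA repeated after 2 bases of any kind, the core of an interferon-stimulated response element. No pair of matches in these genes shared a base. Capitals below mark AP-1 and STAT matches.
Sprr1a (chr3:92485882-92486131, minus strand): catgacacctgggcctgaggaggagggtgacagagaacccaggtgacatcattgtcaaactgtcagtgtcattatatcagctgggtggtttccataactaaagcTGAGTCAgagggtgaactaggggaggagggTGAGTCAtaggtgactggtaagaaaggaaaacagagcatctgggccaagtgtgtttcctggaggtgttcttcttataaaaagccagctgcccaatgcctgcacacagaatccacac
Sprr1b (chr3:92438780-92439029, minus strand): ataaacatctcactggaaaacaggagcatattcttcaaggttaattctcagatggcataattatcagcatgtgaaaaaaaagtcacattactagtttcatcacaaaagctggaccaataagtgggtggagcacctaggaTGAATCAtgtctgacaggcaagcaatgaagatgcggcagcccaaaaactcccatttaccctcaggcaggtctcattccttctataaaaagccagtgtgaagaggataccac
Sprr2d (chr3:92338890-92339139, plus strand): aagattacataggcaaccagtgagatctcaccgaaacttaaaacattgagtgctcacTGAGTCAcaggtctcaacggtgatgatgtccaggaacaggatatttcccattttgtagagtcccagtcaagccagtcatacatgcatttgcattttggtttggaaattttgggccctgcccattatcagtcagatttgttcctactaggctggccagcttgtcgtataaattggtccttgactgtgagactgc
Sprr2h (chr3:92385435-92385684, plus strand): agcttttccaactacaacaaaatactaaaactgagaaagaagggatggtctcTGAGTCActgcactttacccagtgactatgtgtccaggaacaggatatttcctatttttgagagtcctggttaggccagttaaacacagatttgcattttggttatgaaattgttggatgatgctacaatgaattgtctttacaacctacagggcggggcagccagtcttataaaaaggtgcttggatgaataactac
Lce1l (chr3:92851287-92851536, minus strand): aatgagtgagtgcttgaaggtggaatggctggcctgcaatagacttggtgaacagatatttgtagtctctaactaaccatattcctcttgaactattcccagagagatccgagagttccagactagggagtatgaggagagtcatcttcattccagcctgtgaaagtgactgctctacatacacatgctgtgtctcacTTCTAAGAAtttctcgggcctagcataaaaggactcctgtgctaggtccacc
Lce1m (chr3:93019062-93019311, minus strand): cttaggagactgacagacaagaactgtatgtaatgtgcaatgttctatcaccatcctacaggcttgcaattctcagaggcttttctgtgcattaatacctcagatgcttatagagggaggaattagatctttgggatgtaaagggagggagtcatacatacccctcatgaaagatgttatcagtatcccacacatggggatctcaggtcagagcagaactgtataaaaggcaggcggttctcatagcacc

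The AP-1 letters stood in 7 of 8 Sprr windows (87.5%) and in 0 of 14 Lce windows, against 6.75% of all 32851 promoter windows of this length. Sprr3 was the Sprr gene without it. The match lay at -198 to -192 from the start site in Sprr2h, at -193 to -187 in Sprr2d and at -111 to -105 in Sprr1b, and Sprr1a held a pair, at -146 to -140 and at -116 to -110. Sprr2k, which moved least under jak12i, also held a pair, at -196 to -190 and at -182 to -176. The untested Sprr2f and Sprr2i held it at -197 to -191 and at -193 to -187. Each Sprr2 window held a match between -198 and -187, so the 7 windows are not independent. Among the other genes, 4 of 7 held it (Lor, Ivl, Flg and Rptn). The middle base of the match was A in Sprr1b and Flg, T in Rptn, and C or G in the other genes with a match. STAT letters were in 0 of 8 Sprr, 1 of 14 Lce (Lce1l, at -52 to -44) and 1 of 7 other windows (Tgm1), against 7.02% of all windows. The interferon element was in Tgm1 only among the 29, against 2.98% of all windows. TATAAA was in 8 of 8 Sprr windows, 2 of 14 Lce windows and 6 of 7 others, against 12.4% of all. A match is a string of letters, and no binding was measured.

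The question of the week 13 comparisons was how skin under each agent differed from skin under its vehicle. With jak12i all 5 tested Sprr genes fell. In all, 12 of the 25 tested members fell and 1 rose, where 21.9% of all tested genes were called in either direction and 10.3% were called lower. The median change was -3.06 over the 5 Sprr genes, -0.35 over 13 Lce genes and -0.81 over the 7 others, against 0.02 over all tested genes.

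Sprr1b, a crosslinked spacer protein of the envelope, gave signals of 9.26, 9.72 and 10.40 in the PBS gavage arrays and 4.65, 4.92 and 6.02 in the jak12i arrays. The groups were far apart, and the jak12i mean (5.20) lay under 5.38, the highest 25th percentile of the week 13 arrays. The level was thus near background, and the difference may be understated. Sprr1b fell by 4.59 ± 0.83 (SE), an estimate of 24.1-fold (adjusted p = 0.000118, limma). Sprr2d, of the Sprr2 group that is known to rise in inflamed epithelia, read 8.85, 9.37 and 9.12 with PBS gavage and 5.83, 5.87 and 6.24 with jak12i. No jak12i array came within 2 log2 units of a vehicle array, and the gene fell by 3.13 ± 0.47 (adjusted p = 1.18e-05, limma). Sprr2h read 8.81, 9.45 and 10.08 against 6.00, 6.28 and 6.89, and fell by 3.06 ± 0.65 (adjusted p = 0.000831, limma). Its probe set matches several transcripts, so the fall is that of 1 or more Sprr2 genes. Sprr1a, the close relative of Sprr1b, read 12.99, 12.58 and 13.34 against 10.40, 10.90 and 11.06. It remained well above the table median with jak12i while falling by 2.19 ± 0.50, 4.56-fold (adjusted p = 0.00152, limma). Sprr2k moved least, from 6.53, 6.71 and 6.92 to 6.26, 6.14 and 6.25, a fall of 0.50 ± 0.13 (adjusted p = 0.00399, limma) that was no longer called without PBS gavage replicate 3 (adjusted p = 0.0548). For none of the 5 did vehicle and jak12i arrays overlap.

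**Figure D1:**
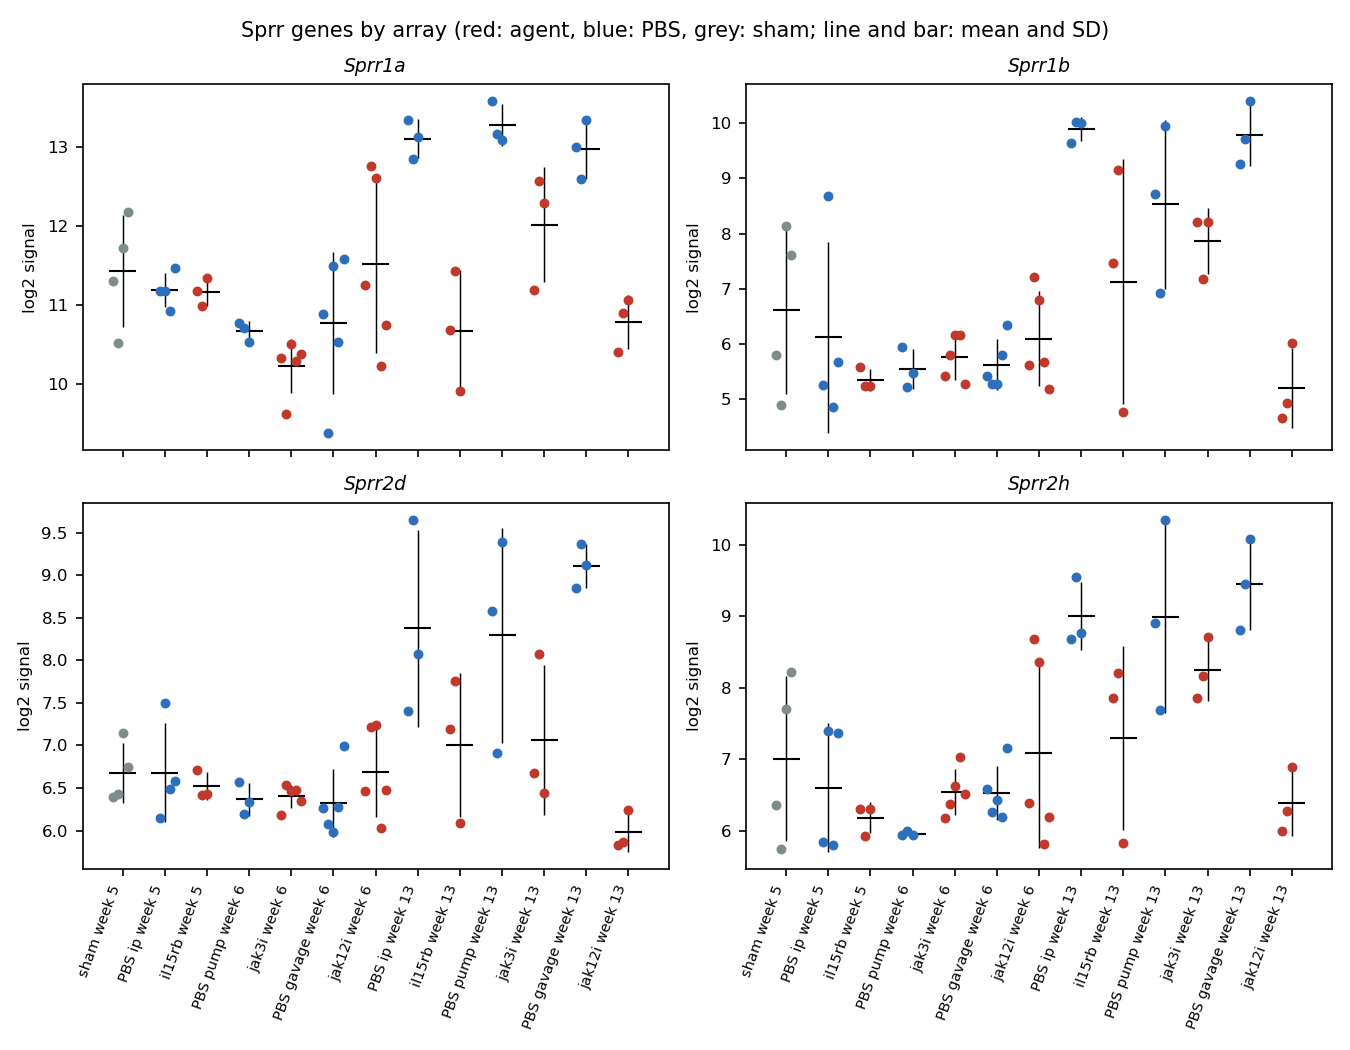
Log2 signal of 4 Sprr genes in each array (points) of the 13 groups, with group mean and SD; red marks agents, blue PBS and grey sham. In week 13 all 3 jak12i arrays lie below all 3 PBS gavage arrays for each gene, and the week 13 PBS arrays of Sprr1a lie between 12.58 and 13.58.

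The untested Sprr genes were low throughout. Sprr2i was listed at 5.51, 5.25 and 5.84 with PBS gavage and at 4.57, 4.50 and 4.44 with jak12i, and Sprr2f lay between 4.14 and 5.02 in the same 6 arrays. Sprr3 lay between 5.51 and 6.01 and Sprr2j-ps between 5.31 and 5.78 in them. All 4 genes failed the signal filter, and no test was made of them.

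Among the other structural genes, filaggrin fell with jak12i and loricrin did not pass. Flg, whose product bundles keratin and breaks down into the skin's moisturising amino acids, read 11.33, 11.61 and 11.63 with PBS gavage and 10.01, 9.51 and 10.19 with jak12i. The groups were apart, and the gene fell by 1.62 ± 0.30, 3.08-fold (adjusted p = 0.000148, limma). Tgm3 read 7.45, 8.18 and 8.93 against 7.04, 6.95 and 6.79 and fell by 1.26 ± 0.37 (adjusted p = 0.0128, limma). Its vehicle arrays spread widely, and without PBS gavage replicate 3 the call was lost (-0.89, adjusted p = 0.146). A second, dimmer Tgm3 probe set changed by -0.38.

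Loricrin, the most abundant protein of the finished envelope, read 13.78, 13.93 and 13.78 with PBS gavage and 13.82, 13.89 and 13.85 with jak12i. The groups overlapped, and the difference was 0.02 ± 0.13 with a 95% interval from -0.23 to 0.28 (adjusted p = 0.916, limma). Involucrin differed by -0.27 ± 0.20, with overlapping groups (adjusted p = 0.359). Tgm1 (-0.48 ± 0.21, adjusted p = 0.0894) and hornerin (-0.91 ± 0.35, adjusted p = 0.0628) were lower in every jak12i array than in every vehicle array and did not pass in limma. Both did pass with PBS of all routes as the control, Tgm1 at -0.60 (adjusted p = 0.00503) and Hrnr at -0.98 (adjusted p = 0.00596), and Hrnr passed after quantile normalization (0.0397) and Tgm1 without jak12i replicate 2 (0.0482). Repetin differed by -0.81 ± 0.49 with overlapping groups (adjusted p = 0.243).

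The Lce family split under jak12i: 5 of 13 tested genes fell, 1 rose and 7 did not pass. Lce3f read 6.60, 6.92 and 6.94 with PBS gavage and 4.96, 4.99 and 4.89 with jak12i, where the mean was near background. Its fall was estimated at 1.87 ± 0.37, 3.66-fold (adjusted p = 0.000359, limma), and may be understated. It entered the test only through 4 PBS arrays of week 13, 2 of them PBS gavage, so this call is a description. Lce3c, on a probe set that shares sequence with other genes, read 8.21, 8.39 and 8.89 against 7.29, 7.44 and 7.53 and fell by 1.08 ± 0.21 (adjusted p = 0.000372, limma). Lce3b, the third tested gene of that branch, did not pass (-0.31 ± 0.16, adjusted p = 0.174).

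In the Lce1 branch, Lce1f read 11.98, 12.33 and 12.89 with PBS gavage and 10.99, 10.61 and 10.48 with jak12i, a fall of 1.70 ± 0.37 with groups apart (adjusted p = 0.00115, limma). Its second probe set changed by -1.89. Lce1h (-1.40 ± 0.41, adjusted p = 0.0136) and Lce1i (-1.21 ± 0.42, adjusted p = 0.0371) fell too, and both calls were lost without PBS gavage replicate 3 (adjusted p = 0.153 and 0.192), without jak12i replicate 3 (0.0778 and 0.179) and with week 13 arrays only (0.129 and 0.196). That of Lce1i was lost in 7 of 13 alternatives, also without jak12i replicate 2 (0.0724) or PBS gavage replicate 2 (0.0798). Lce1m alone rose: 11.74, 11.90 and 11.84 with PBS gavage against 12.70, 12.66 and 12.47 with jak12i. The arrays did not overlap, the rise was 0.78 ± 0.28 (adjusted p = 0.0417, limma), and it lost its call in 8 of 13 alternatives (adjusted p up to 0.2). The 3 Lce genes of highest signal, Lce1c (-0.22 ± 0.26), Lce1a1 (-0.30 ± 0.23) and Lce1a2 (-0.07 ± 0.27), had overlapping groups and did not pass.

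Vehicle and jak12i arrays stood apart without overlap for 15 of the 25 tested genes, where 37% of all tested genes did not overlap. Without PBS gavage replicate 3, 8 members in place of 13 were called. The calls of Sprr1a, Sprr1b, Sprr2d, Sprr2h, Flg, Lce1f and Lce3c were lost in none of the 13 alternatives run for this comparison, nor was that of Lce3f, with the limit given above.

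**Figure D2:**
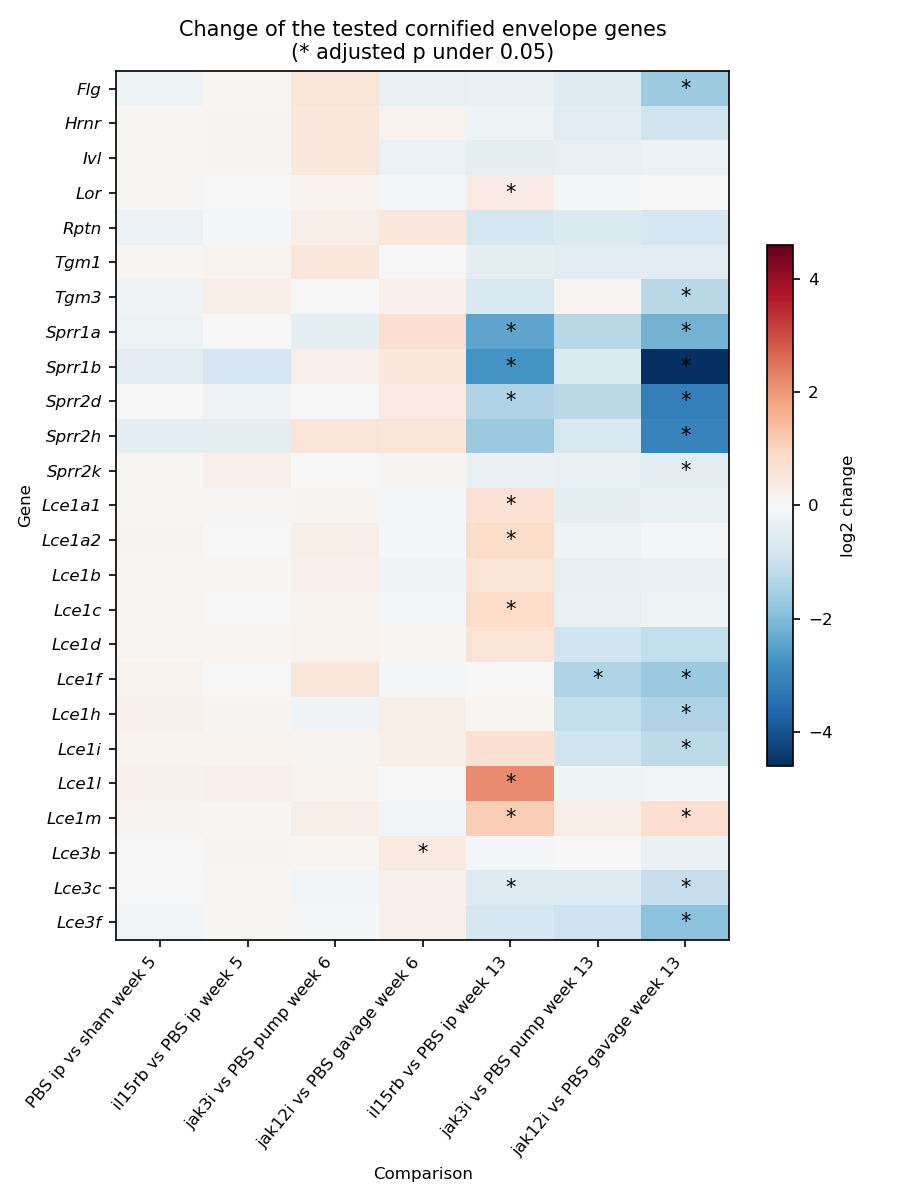
Log2 change of the 25 tested genes (rows) in 7 comparisons (columns), blue lower and red higher, with * at an adjusted p under 0.05. Calls gather in the week 13 columns of il15rb (10 genes) and jak12i (13 genes), and the largest fall is that of Sprr1b under jak12i at -4.59.

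With il15rb at week 13, 3 Sprr genes and Lce3c fell while Lor and 5 Lce1 genes rose. These 10 of 25 called genes stand beside 25.7% of all tested genes called in this comparison (15.1% higher, 10.6% lower). The median change was -1.70 over 5 Sprr genes, 0.63 over 13 Lce genes and -0.40 over the 7 others, against 0.01 over all tested genes.

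Sprr1a read 13.34, 12.84 and 13.12 with PBS ip and 10.68, 11.43 and 9.90 with il15rb. Every il15rb array was below every PBS ip array, and the gene fell by 2.43 ± 0.50, 5.39-fold (adjusted p = 0.000444, limma). This call held in all 14 alternatives run, at -2.81 to -2.05. Sprr1b read 9.65, 10.02 and 10.01 against 7.47, 9.16 and 4.76: it was lower in all 3 il15rb arrays, which differed among themselves by over 4 log2 units. It fell by 2.76 ± 0.83 (adjusted p = 0.0125, limma), and without il15rb replicate 3, the lowest array, the change was -1.58 and not called (adjusted p = 0.195).

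Sprr2d read 7.41, 9.65 and 8.07 with PBS ip and 7.19, 7.75 and 6.09 with il15rb. The groups overlapped, and the fall of 1.37 ± 0.47 (adjusted p = 0.0307, limma) lost its call without any one of il15rb replicate 1 (adjusted p = 0.052), il15rb replicate 3 (0.232), PBS ip replicate 2 (0.259) or PBS ip replicate 3 (0.0534). Sprr2h read 8.69, 9.55 and 8.77 against 7.85, 8.21 and 5.83, did not overlap and did not pass (-1.70 ± 0.65, adjusted p = 0.0506). Sprr2k did not pass either (-0.31 ± 0.13, adjusted p = 0.0645).

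The Lce1 rises rested on a vehicle group that was split. Lce1c read 11.31 and 11.42 in PBS ip replicates 1 and 3 and 13.32 in replicate 2, against 13.09, 12.82 and 12.71 with il15rb. The highest of the 6 arrays was thus a vehicle array. Lce1l, which rose most, read 5.60 and 5.77 in the same 2 vehicle arrays and 8.79 in replicate 2, against 9.45, 8.45 and 8.78. Its rise was 2.17 ± 0.50 (adjusted p = 0.00151, limma) with overlapping groups. Lce1m rose by 1.15 ± 0.28 (adjusted p = 0.0027), Lce1c by 0.86 ± 0.26 (0.0124), Lce1a2 by 0.86 ± 0.27 (0.0167), Lce1a1 by 0.68 ± 0.23 (0.0299) and Lor by 0.37 ± 0.13 (0.0277), all in limma and all with overlapping groups.

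PBS ip replicates 1 and 3 are the arrays in which the 12 skeletal muscle genes were lowest among the PBS ip arrays, at 10.5 and 7.44, where replicate 2 had 12.9 and il15rb arrays 13.2 to 13.6. In this comparison 11 of those 12 genes were higher with il15rb, with a median change of 3.15, and the part of this in the Lce1 values was not tested. The same arrays split in hair shaft genes (mean signal 11.2 and 10.5 in replicates 1 and 3, 7.54 in replicate 2) and inner root sheath genes (12.3 and 11.7 against 8.40), whose part was not tested either. Without PBS ip replicate 3, 5 members were called instead of 10, and Lce1a1, Lce1a2, Lce1c, Lce1m and Lor were no longer among them (adjusted p = 0.261, 0.21, 0.164, 0.0731 and 0.334). Without PBS ip replicate 1, Lce1a1, Lce1a2, Lce1c and Lor lost their calls (0.309, 0.22, 0.194 and 0.155), and without il15rb replicate 1, 4 members were called. With the spread estimated from week 13 arrays alone, 3 members were called and no Lce1 rise passed (Lce1l, adjusted p = 0.0528).

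Lce3c read 7.87, 9.19 and 8.06 with PBS ip and 7.85, 7.89 and 7.57 with il15rb, so that the fall of 0.61 ± 0.21 (adjusted p = 0.0327, limma) came with overlapping groups, and without PBS ip replicate 2 it was -0.20 (adjusted p = 0.441). Among the genes that did not pass, Ivl (11.85, 11.88 and 11.58 against 11.47, 11.27 and 11.20) and Tgm1 (10.17, 9.84 and 9.85 against 9.77, 9.65 and 9.22) did not overlap and differed by -0.46 ± 0.20 (adjusted p = 0.0882) and -0.40 ± 0.21 (adjusted p = 0.15). Ivl passed with the week 13 arrays alone (adjusted p = 0.0314), and Ivl and Tgm1 with PBS of all routes as control (0.0191 and 0.036), where Rptn (-1.02, 0.0403) and Tgm3 (-0.80, 0.0332) passed too. With that control Lce1a1 (0.23, adjusted p = 0.417), Lce1a2 (0.36, 0.255), Lce1c (0.29, 0.368), Lce1l (1.11, 0.0624) and Lor (0.14, 0.352) lost their calls. Flg differed by -0.31 ± 0.30 (adjusted p = 0.479), Hrnr by -0.19 ± 0.35 (0.734), Rptn by -0.82 ± 0.49 (0.224) and Tgm3 by -0.70 ± 0.37 (0.167). Lce1f differed by -0.02 ± 0.37 (0.976), and the groups of these 5 genes overlapped. Groups did not overlap for 5 of the 25 members in this comparison, where 36.8% of all tested genes did not overlap.

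**Figure D3:**
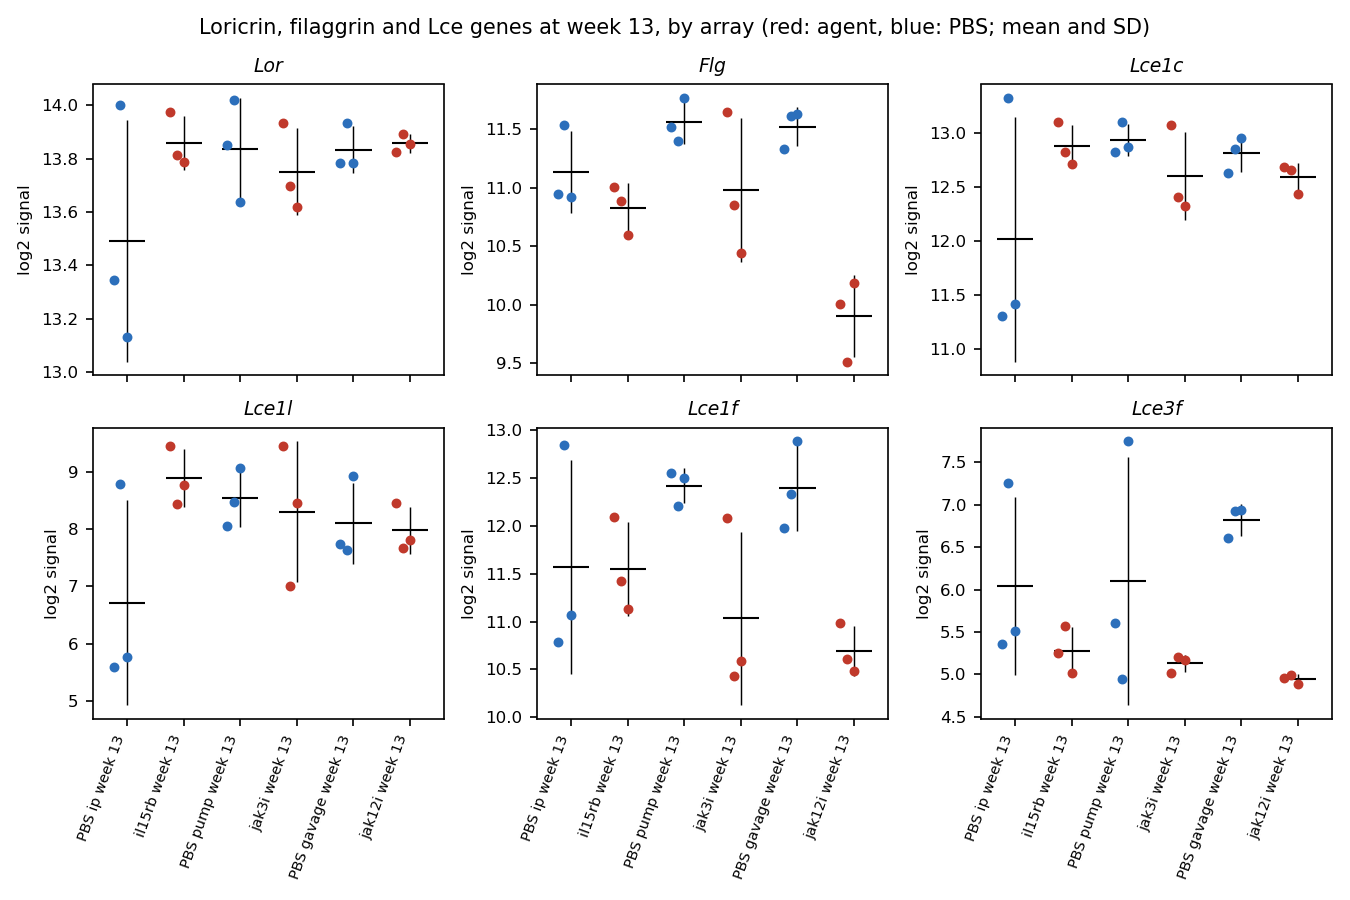
Log2 signal of Lor, Flg and 4 Lce genes in each week 13 array (points), with group mean and SD; red marks agents and blue PBS. PBS ip replicates 1 and 3 lie low for Lor, Lce1c and Lce1l while replicate 2 lies with the other groups, and Flg is lowest in the jak12i arrays at 9.51 to 10.19.

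With jak3i at week 13, 1 member, Lce1f, was called, where 16% of all tested genes were and 6.32% were lower. It read 12.56, 12.21 and 12.50 with PBS pump and 12.08, 10.43 and 10.59 with jak3i: all jak3i arrays were lower, replicate 1 only slightly. The fall was 1.39 ± 0.37, 2.62-fold (adjusted p = 0.00904, limma), with -1.31 on the second probe set. The call of Lce1f was lost in 3 of 14 alternatives. These were without jak3i replicate 2 (adjusted p = 0.0696), without jak3i replicate 3 (0.0686) and with week 13 arrays only (0.0862). The other 24 tested members did not pass, and 23 of 25 had a change below 0. The median was -0.74 over Sprr genes, -0.41 over Lce genes and -0.50 over the others, against 0.03 over all tested genes. Groups did not overlap for 6 of the 25, where 29.7% of all tested genes did not overlap.

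Sprr1a read 13.58, 13.16 and 13.09 with PBS pump and 11.19, 12.56 and 12.29 with jak3i. All jak3i arrays were lower, and the difference of -1.26 ± 0.50 did not pass (adjusted p = 0.078, limma). It passed with week 13 arrays only (0.0472) and with PBS of all routes as control (0.0432). Sprr2d read 8.58, 6.91 and 9.39 against 6.68, 8.07 and 6.45, with overlap (-1.23 ± 0.47, adjusted p = 0.0729). PBS pump replicate 2, the array with skeletal muscle genes at 7.81, was the lowest vehicle array for Sprr1b (6.92, beside 8.72 and 9.95), Sprr2d and Sprr2h (7.69, beside 8.91 and 10.36). Without it, 5 members were called and Sprr2d was among them (-1.92, adjusted p = 0.00444). Sprr2d passed also without jak3i replicate 2 (0.0173) and with PBS of all routes (0.00458). Leaving out other arrays gave 4 calls (jak3i replicate 1), 2 (PBS pump replicate 1) and 0 (jak3i replicate 3). Sprr1b differed by -0.67 ± 0.83, Lor by -0.09 ± 0.13, Flg by -0.58 ± 0.30, Ivl by -0.35 ± 0.20, Tgm1 by -0.50 ± 0.21, Tgm3 by 0.08 ± 0.37, Hrnr by -0.51 ± 0.35 and Rptn by -0.64 ± 0.49. The Lce genes of highest signal differed by -0.33 ± 0.26 (Lce1c), -0.41 ± 0.23 (Lce1a1) and -0.19 ± 0.27 (Lce1a2). Adjusted p ran from 0.0958 (Tgm1) to 0.925 (Tgm3) over these 11 genes.

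Whether the agents differed was tested for jak12i against jak3i, each change taken against its own vehicle. At week 13, 0 of 25 members were called, and 1 of all tested genes was (0.00733%). An unadjusted p under 0.05 was found for 5 members, Sprr1b, Sprr2d, Sprr2h, Flg and Tgm3, and for 6.59% of all tested genes. For Sprr1b the jak12i change minus the jak3i change was -3.92 ± 1.17 (95% interval -6.30 to -1.55, unadjusted p = 0.00186, adjusted p = 0.437 in limma). For Sprr2d it was -1.91 ± 0.67 (-3.27 to -0.55, adjusted p = 0.633), for Flg -1.04 ± 0.42 (-1.89 to -0.19, adjusted p = 0.654), for Tgm3 -1.34 ± 0.52 (-2.40 to -0.28, adjusted p = 0.642) and for Sprr1a -0.93 ± 0.70 (-2.35 to 0.49, adjusted p = 0.886). Thus a call under jak12i and none under jak3i does not amount to a called difference between them. The il15rb and jak12i comparisons, which use different vehicle arrays, shared 4 falls (Sprr1a, Sprr1b, Sprr2d and Lce3c) and 1 rise (Lce1m), where 5.54% of all tested genes fell in both and 7.41% rose in both. The difference between these agents was not tested.

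The early weeks held few calls among these genes. With il15rb at week 5, 0 of 25 were called, where 0.0733% of all tested genes were, and 0 had an unadjusted p under 0.05, where 4.02% of all tested genes had. Sprr1a read 11.18, 11.18, 10.92 and 11.46 with PBS ip and 11.17, 10.98 and 11.33 with il15rb (-0.02 ± 0.46, 95% interval -0.96 to 0.91, adjusted p = 1, limma). Lor differed by 0.01 ± 0.12, Flg by 0.08 ± 0.28, Ivl by 0.12 ± 0.19, Tgm1 by 0.17 ± 0.19, Tgm3 by 0.32 ± 0.35 and Lce1c by -0.00 ± 0.24. Sprr1b differed by -0.76 ± 0.77: 1 PBS ip array read 8.68, where the other vehicle arrays read 4.86 to 5.68 and il15rb arrays 5.24 to 5.58. PBS ip against sham gave 0 calls among the 25, where 0.0293% of all tested genes were called, and again 0 at an unadjusted p under 0.05, where 5% of all tested genes were. Sham arrays were themselves wide apart in the Sprr genes, from 4.89 to 8.14 for Sprr1b and from 5.75 to 8.23 for Sprr2h.

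At week 6 jak3i gave 0 calls of 25, where 4.1% of all tested genes were called, and 3 members (Ivl, Tgm1 and Flg) had an unadjusted p under 0.05, as had 16% of all tested genes. Tgm1 read 8.83, 8.22 and 7.96 with PBS pump and 8.89, 8.67, 9.17, 8.80 and 8.70 with jak3i, overlapping at 1 vehicle array, and was 0.51 ± 0.19 higher (adjusted p = 0.122, limma). Ivl was 0.49 ± 0.18 higher (adjusted p = 0.124) and Flg 0.55 ± 0.27 (adjusted p = 0.301). Without PBS pump replicate 1 the first 2 passed, at 0.76 (adjusted p = 0.0136) and 0.71 (0.0207). Sprr1a, at 10.77, 10.71 and 10.53 with PBS pump and 9.62 to 10.51 with jak3i, did not overlap and did not pass (-0.45 ± 0.44, adjusted p = 0.711).

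With jak12i at week 6, 1 of 25 was called, as higher, where 9.59% of all tested genes were called and 1.49% were higher. That gene, Lce3b, read 8.63, 8.25, 8.25, 8.63 and 8.41 with PBS gavage and 8.88, 8.85, 8.94, 8.66 and 8.86 with jak12i. The arrays did not overlap, by a narrow margin, and the rise was 0.40 ± 0.13 (adjusted p = 0.037, limma). It lost its call in 11 of 19 alternatives, among them leaving out any of 4 jak12i arrays (replicates 1, 2, 3 and 5) or of 3 PBS gavage arrays (replicates 2, 3 and 5), with adjusted p from 0.0578 to 0.112 in those 7. With PBS of all routes as control the Lce3b change was 0.19 (adjusted p = 0.455, limma). Without the 3 arrays high in hair shaft genes it was 0.36 (adjusted p = 0.155). Sprr1a read 11.25, 12.76, 12.60, 10.22 and 10.74 with jak12i and 10.88, 9.37, 11.49, 10.52 and 11.58 with PBS gavage, a difference of 0.75 ± 0.38 that did not pass (adjusted p = 0.216). Its 2 highest arrays, jak12i replicates 2 and 3, were also highest for Sprr1b (7.22 and 6.79) and Sprr2h (8.69 and 8.36) among the jak12i arrays. In these arrays hair shaft genes had a mean signal of 11.2 and 10.9 (6.00 to 6.11 in the other jak12i arrays), inner root sheath genes 12.0 and 11.8 (6.42 to 6.52) and injury genes 8.80 and 8.73 (7.61 to 7.75), and the part of these in the Sprr values was not tested. All 5 tested Sprr genes were higher with jak12i by 0.14 to 0.75, and none passed.

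In level, Sprr1a and Sprr2h were higher in every week 13 PBS array than in any PBS array of the earlier weeks, although no test was made across weeks. Sprr1a read 12.58 to 13.58 in all 9 PBS arrays of week 13, against 9.37 to 11.58 in the 12 PBS arrays of weeks 5 and 6. Sprr1b read 6.92 to 10.40 in the former and 4.86 to 8.68 in the latter, with overlap, and Sprr2h 7.69 to 10.36 against 5.80 to 7.40. Sprr2k showed no such rise: its PBS arrays read 6.39 to 7.03 in week 13, a range that holds the 6.70 to 6.86 of week 5. Week 6 stood higher, at 7.08 to 7.78 in PBS arrays and at means of 7.64 with jak3i and 7.43 with jak12i. For Lor the ranges were 13.13 to 14.02 and 13.49 to 14.16, and overlapped. The jak12i arrays of week 13 (10.40 to 11.06 for Sprr1a, 6.00 to 6.89 for Sprr2h) lay within the range of the early PBS arrays.

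Interaction terms asked whether an agent's change differed between weeks. For jak12i, the change of 12 of 25 members was lower at week 13 than at week 6, where 16.1% of all tested genes differed in either direction and 5.56% lower. All 5 Sprr genes were among them: Sprr1b differed by -5.07 ± 1.05 (adjusted p = 0.00119), Sprr2h by -3.62 ± 0.83 (0.00295), Sprr2d by -3.50 ± 0.60 (0.000181), Sprr1a by -2.94 ± 0.63 (0.00163) and Sprr2k by -0.64 ± 0.16 (0.00568), all in limma. Flg differed by -1.30 ± 0.38 (0.0159) and Tgm3 by -1.48 ± 0.47 (0.0272). The 5 remaining genes were Lce1f, Lce1h, Lce3b, Lce3c and Lce3f, by -0.71 to -2.11. Without PBS gavage week 13 replicate 3, 7 members were called, and 9 without the 3 arrays high in hair shaft genes, of which jak12i week 6 replicates 2 and 3 enter here.

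For il15rb, the changes of Sprr1a (-2.41 ± 0.68, adjusted p = 0.0192, limma) and Sprr2k (-0.53 ± 0.17, adjusted p = 0.0433) were lower at week 13 than at week 5. Of all tested genes 10.6% differed, and 4.07% in that direction. The week 5 means of Sprr2k were 6.97 with il15rb and 6.75 with PBS ip, and its change was called in neither week. Between 0 calls (without il15rb week 13 replicate 3) and 10 (without PBS ip week 13 replicate 2) were made when single arrays were left out, and 1 without il15rb week 5 replicates 1 or 2, PBS ip week 5 replicates 3, 4 or 5, il15rb week 13 replicate 2 or PBS ip week 13 replicate 3. For jak3i, Lce1f (-1.89 ± 0.50, adjusted p = 0.0136), Tgm1 (-1.01 ± 0.28, 0.0168) and Ivl (-0.84 ± 0.27, 0.041) differed between weeks 13 and 6 in limma, where 9.2% of all tested genes did and 3.02% downward. No call was made without PBS pump week 6 replicate 2 or jak3i week 13 replicate 3, and 1 without PBS pump week 6 replicate 3. The jak12i change minus the jak3i change at week 6 gave 0 calls of 25, where 2.37% of all tested genes were called, with 3 members (Ivl, Flg and Sprr1a) and 17.6% of all tested genes at an unadjusted p under 0.05.

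Vehicle groups of one week also differed from each other. At week 6, 6 of 25 members differed between PBS gavage and PBS pump, where 37.2% of all tested genes did (27.6% higher and 9.6% lower with gavage). Tgm1 read 9.003, 9.02, 9.84, 9.13 and 9.51 with gavage and 8.83, 8.22 and 7.96 with pump. The groups did not overlap, and Tgm1 was higher with gavage by 0.97 ± 0.19 (adjusted p = 9.46e-05, limma). Flg (0.87 ± 0.27), Ivl (0.55 ± 0.18) and Lor (0.33 ± 0.11) were also higher with gavage, with overlapping groups, and Lce3b (-0.57 ± 0.15) and Sprr2k (-0.33 ± 0.11) were lower, with adjusted p from 0.00213 to 0.0226. Without PBS pump replicate 3, 2 members were called. At week 13 the vehicle pairs gave 0 calls among the 25, where 0.0513% (pump against ip), 0% (gavage against ip) and 0.0513% (gavage against pump) of all tested genes were called. At an unadjusted p under 0.05 stood 11, 11 and 0 of the 25, and 7.33%, 11.2% and 8.53% of all tested genes. Lor and most Lce1 genes were among the 11 in both comparisons with PBS ip. Without PBS ip replicate 2, the one array of its group with high Lce1 genes, 11 and 12 members differed between PBS ip and the pump and gavage vehicles.

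Of the 31 genes 29 lie on chromosome 3, with Tgm1 on 14 and Tgm3 on 2. RefSeq's order along chromosome 3 runs from Lor through the Sprr genes, Ivl, Lce1a1 to Lce1l, and the Lce3 genes to Lce1m, Flg, Hrnr and Rptn. No test of neighbourhood was made. Under jak12i the neighbours Lce1a1, Lce1b, Lce1a2 and Lce1c changed by -0.35 to -0.07, and the following Lce1d, Lce1f, Lce1h and Lce1i by -1.70 to -1.13. The next tested gene, Lce1l, changed by -0.12. Probe sets of Lce1d, Lce1h and Lce1i share sequence with other genes, so these are not independent measurements. Under il15rb the stretch from Lce1a1 to Lce1d lay at 0.62 to 0.86, Lce1f and Lce1h at -0.02 and 0.10, Lce1i at 0.70 and Lce1l at 2.17. Under jak3i, Lce1a1 to Lce1c lay at -0.41 to -0.19, Lce1d to Lce1i at -1.39 to -0.90 and Lce1l at -0.23. Lce1f and Lce1h were the lowest tested Lce1 genes under each of the 3 agents. Differences between agents along this order were not tested.

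**Figure D4:**
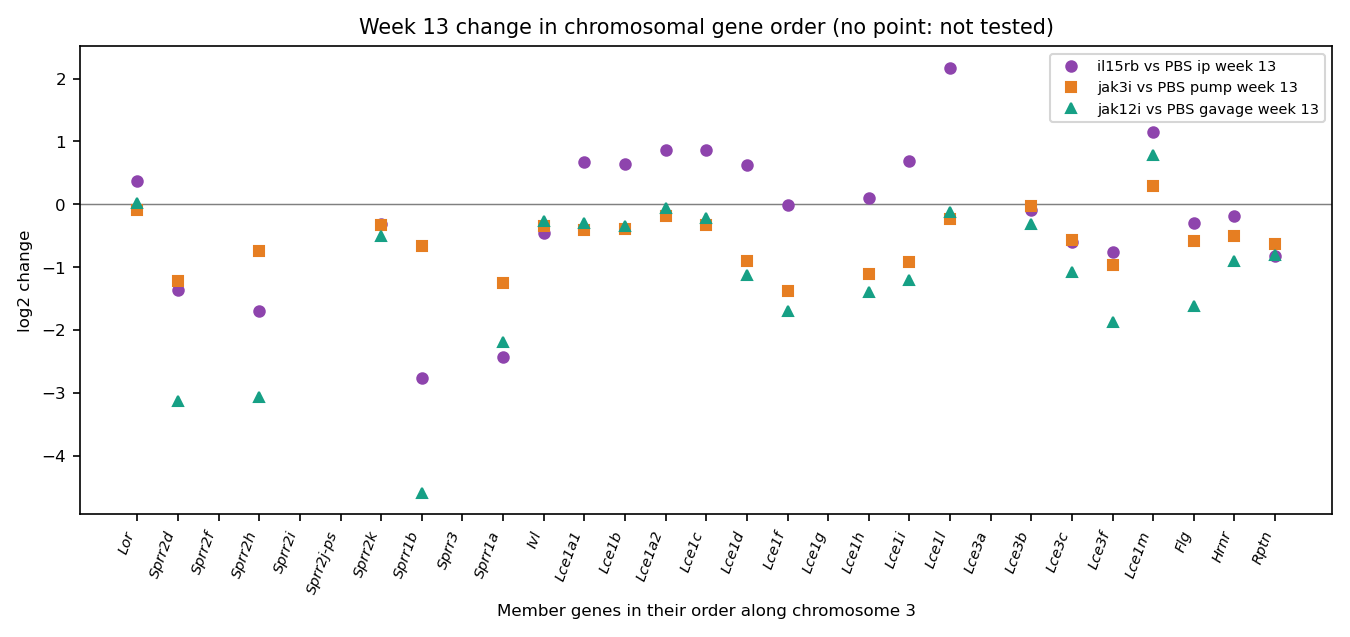
Log2 change at week 13 for the members on chromosome 3 in RefSeq gene order (horizontal axis, order only), one symbol per agent; genes without a point were not tested. The Sprr genes are below 0 under all 3 agents, and the Lce1 genes from Lce1a1 to Lce1d are above 0 with il15rb and below it with jak3i and jak12i.

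Other proteins of cornification (36 listed, 33 tested) were examined as a second list. With jak12i at week 13, 7 fell, 3 rose and 23 did not pass, beside 10.3% of all tested genes lower and 11.6% higher, with a median change of -0.00 on the log2 scale. The change was above 0 for 16 genes and below it for 17, and the genes named here are from the falls only. Casp14, the protease that takes part in filaggrin breakdown, fell by 1.62 ± 0.38 (adjusted p = 0.00231, limma), Klk7, a protease of desquamation, by 0.78 ± 0.17 (adjusted p = 0.00121) and Cnfn, cornifelin, by 0.87 ± 0.25 (adjusted p = 0.0103). Klk7 also fell with il15rb (-0.95 ± 0.17, adjusted p = 0.000119) and with jak3i (-0.74 ± 0.17, adjusted p = 0.0028), where 4 and 2 genes of this list fell and 0 rose, beside 10.6% and 6.32% of all tested genes lower. Of 6 suprabasal keratins, which fill the cells that build the envelope, 1 (Krt1, -0.70 ± 0.19, adjusted p = 0.00815) fell with jak12i and 0 were called with the other agents.

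Of 9 tested genes of injured or hyperproliferative epidermis, 7 fell with jak12i, 5 with il15rb and 4 with jak3i at week 13, and 0 rose, beside 10.3%, 10.6% and 6.32% of all tested genes lower. Of the 5 tested Sprr genes 5, 3 and 0 were called lower in the same comparisons, and no joint test was made. Krt16, a keratin of wounded epidermis, fell by 3.61 ± 0.62 (jak12i, adjusted p = 5.93e-05), 2.82 ± 0.62 (il15rb, 0.000959) and 2.59 ± 0.62 (jak3i, 0.00335), all in limma. The mean signal of the list was 9.62 to 10.38 in the 9 week 13 PBS arrays and 7.48 to 9.25 in the 9 arrays under agents, and 7.64 to 8.84 in the PBS arrays of weeks 5 and 6. These means are over the 11 measured genes of the list, with Defb3 and Defb4, which failed the signal filter.

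Markers of other cells were measured in the same arrays, and the shares of all tested genes called are those given above. For jak3i at week 13 these are 16% in either direction and 6.32% lower, and the rest of the 16% were called higher. At week 13, all 9 tested interferon gamma response genes fell under each agent, and of 8 tested T cell genes 7 fell with il15rb, 6 with jak3i and 5 with jak12i. Mean T cell signal was 8.44 to 9.02 in the PBS arrays of week 13 and 7.18 to 7.84 under the agents. All 8 tested hair shaft genes fell with jak12i (mean signal 5.75 to 6.75, against 9.24 to 11.5 with PBS gavage), as did 6 of 8 inner root sheath genes, while with il15rb 0 of 8 hair shaft genes were called at a median change of -2.18 (4 at an unadjusted p under 0.05), and with jak3i 0 of 8 at a median of 0.25 (0 at an unadjusted p under 0.05), all in limma. Tgm3 is also a gene of the hair follicle. Of 7 basal keratinocyte genes, 4 rose and 1 fell with jak12i, 2 rose and 2 fell with il15rb and 2 rose with jak3i, among them Krt15 (1.31 ± 0.19 with jak12i, adjusted p = 5.57e-06, limma). Of 3 tested sebaceous gland genes 2, 1 and 2 rose with il15rb, jak3i and jak12i, and of 9 dermal matrix genes 2, 3 and 0. The part of any of these cell types in the values of the envelope genes was not tested.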

How the data were processed

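Values are log2 signals of 45101 probe sets on 48 arrays of skin RNA, used as deposited. The authors made them with RMA (no version given) according to the submitters' notes on processing, and whether all arrays were normalized together is not given in the sources used here. RMA narrows differences near background. Probe sets with 1 gene symbol (34958) were kept, and those with several (932, of which 3 name Sprr or Lce genes) or none (9211) were left out. Of a gene's probe sets the one with the highest mean over 47 arrays stood for it. Genes above the table median in at least 3 arrays were tested (13648).

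One model with a mean for each group was fitted to the 47 arrays (limma 3.58.1, R 4.3.3, empirical Bayes), with Benjamini-Hochberg adjustment in each of 16 comparisons and a threshold of 0.05. It was run on simulated data whose noise was independent between genes and, for each gene, equal in spread over the groups. That run does not cover groups of unequal spread. The labels do not say that arrays are separate animals, so p-values measure the spread between arrays, whose number limits the precision. The members, marker lists and alternatives were chosen with earlier results of these data known. Named were called members (of more than 10, those of smallest p), Lor, Ivl, Flg, Hrnr, Rptn, Tgm1, Tgm3, Sprr1a, Sprr1b, Sprr2d and the 3 Lce genes of highest mean, and further members were named after their values were seen. Alternatives were quantile normalization, array medians subtracted, no filter, the mean of all probe sets, arrays of the same week only, a replicate block, PBS of all routes as control, both placements of the unassigned array, and arrays left out. Deviations of arrays with equal replicate number correlated at -0.492 to 0.417, so no comparison was paired.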

Additional observations from a re-analysis of the deposited data

Results flagged for a closer look

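In groups of 4 or 5 arrays, 125 sets of values of the tested genes were checked for a single array far from the rest by Dixon's criterion, and 7 were found, where chance gives about 1 in 20. Flg read 10.6354 in jak12i week 6 replicate 5, where the other 4 arrays read 11.01 to 11.14. Rptn read 6.94 in jak3i week 6 replicate 2 (others 8.82 to 9.35) and 7.72 in PBS gavage week 6 replicate 2 (others 9.25 to 9.60). Sprr1a read 9.62 in the same jak3i week 6 replicate 2 (others 10.29 to 10.51). Lce1m read 13.17 in PBS gavage week 6 replicate 3 (others 12.62 to 12.77). Lce3b read 8.96 in PBS ip week 5 replicate 2 (others 8.61 to 8.62) and 8.52 in sham week 5 replicate 4 (others 8.72 to 8.76).

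An agent's change differed between weeks by an interaction term in limma for 17 results. For il15rb, week 13 minus week 5, these were Sprr1a (-2.41) and Sprr2k (-0.53). For jak3i, week 13 minus week 6, they were Ivl (-0.84), Tgm1 (-1.01) and Lce1f (-1.89). For jak12i, week 13 minus week 6, they were Flg (-1.30), Tgm3 (-1.48), Sprr1a (-2.94), Sprr1b (-5.07), Sprr2d (-3.50), Sprr2h (-3.62), Sprr2k (-0.64), Lce1f (-1.64), Lce1h (-1.66), Lce3b (-0.71), Lce3c (-1.32) and Lce3f (-2.11).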

How the results depend on the processing

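Counts of called members moved under these settings, and the cause was not tested. For il15rb at week 13, 3 members were called with week 13 arrays only. For jak3i at week 13, 2 were called without the filter, 5 without the 3 arrays low in skeletal muscle genes and 6 with PBS of all routes. The single jak12i call at week 6 became 0 with the replicate block, without the arrays low in skeletal muscle genes, without the 3 arrays high in hair shaft genes and with PBS of all routes. For jak3i at week 6, 1 was called with PBS of all routes. For the il15rb difference between weeks 1 member was called with quantile normalization and 1 with the replicate block, and the jak3i difference between weeks had 5 without the arrays low in muscle genes. Replicate numbers are not known to pair arrays, and with the block 11 members were called for jak12i and 8 for il15rb at week 13. Leaving out 1 array gave 0 to 2 calls (jak3i week 6), 0 to 1 (jak12i week 6), 4 to 12 (il15rb week 13), 0 to 5 (jak3i week 13), 8 to 13 (jak12i week 13), 2 to 7 (gavage against pump, week 6), 0 to 11 (pump against ip, week 13), 0 to 12 (gavage against ip, week 13), 0 to 1 (gavage against pump, week 13), 0 to 10, 0 to 4 and 7 to 14 (differences between weeks for il15rb, jak3i and jak12i), and 0 to 1 (jak12i minus jak3i, week 6). There were 48 called results, each a member in 1 comparison, so a gene can count more than once. Rerun under the alternatives, these kept direction and call 685 times, lost the call 138 times and reversed 0 times. Near background, log2 differences may be understated.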

Other observations

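The array placed in no group, titled as PBS ip of week 5 and labelled IL15 for treatment, read 11.26 for Sprr1a, 4.75 for Sprr1b, 13.99 for Lor and 13.23 for Lce1c.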
